A study of Mus musculus with 18 samples.

Results

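The Dlk1 to Dio3 imprinted domain was taken as mouse chromosome 12 from 20 kb before Dlk1 to 20 kb after Dio3, at chr12:110671033-111539307 of NCBIM37 with the GENCODE gene models of that build. It holds 6 named genes, Dlk1, Meg3, Rtl1, Rian, Mirg and Dio3, and 88 annotated genes in all, of which 57 encode microRNAs and 23 encode small nucleolar RNAs (snoRNAs). The domain was cut into 174 bins of 5 kb, of 511373 in the genome, and the stretch between Dlk1 and Meg3 into bins of 1 kb, 76 of which hold a CpG, of 2523451 such bins in the genome. Whole-genome bisulfite sequencing of mouse embryonic stem cells gave 18 libraries, in which each read over a CpG reports a methylated or an unmethylated call. The libraries were labelled Wildtype control or Dnmt1 KO, and came from days 1, 3, 6, 9 and 11. Day 6 had 1 library of each genotype, and the other days had 2. Dnmt1 is the maintenance DNA methyltransferase, and according to the methods its floxed alleles were deleted acutely by a hydroxytamoxifen-activated Cre in cells kept in serum with LIF. The labels give E14 as the background strain of every library, whereas the methods describe the floxed cells as C57BL/6, so a difference between lines cannot be told apart from the effect of the deletion.

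Imprinted genes are expressed from 1 parental chromosome only. In this domain the protein-coding genes Dlk1, Rtl1 and Dio3 are expressed from the paternal chromosome, and Meg3, Rian, Mirg and the microRNA and snoRNA genes they carry from the maternal one. The control element is the intergenic differentially methylated region (IG-DMR) upstream of Meg3, which is methylated in sperm and not in oocytes. After fertilisation its paternal methylation is protected by the zinc finger protein ZFP57, which binds a methylated hexamer, while the Meg3 promoter acquires its own methylation later. In embryonic stem cells in culture the domain is known for variable gain of methylation at both sites.

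The sequences below are the sites on which the results turn, on the plus strand of NCBIM37 with every CpG in capitals. The first is the most CpG-dense 300 bases of the IG-DMR window (the 5 kb at chr12:110764211-110769210), at chr12:110766378-110766677, which starts 12833 bases before Meg3 and holds 30 CpGs. The second is the Meg3 promoter and start at chr12:110778961-110779260 with 13 CpGs, and the third is the Dio3 promoter and start at chr12:111517028-111517327 with 31 CpGs, shown because the latter stayed almost free of methylation in both genotypes.
IG-DMR: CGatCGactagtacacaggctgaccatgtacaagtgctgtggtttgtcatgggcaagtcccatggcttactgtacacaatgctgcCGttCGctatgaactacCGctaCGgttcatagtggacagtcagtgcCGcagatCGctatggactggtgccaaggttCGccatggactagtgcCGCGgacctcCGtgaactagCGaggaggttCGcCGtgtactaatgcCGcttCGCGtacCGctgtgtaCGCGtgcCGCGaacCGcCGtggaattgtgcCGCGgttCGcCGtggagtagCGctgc
Meg3 start: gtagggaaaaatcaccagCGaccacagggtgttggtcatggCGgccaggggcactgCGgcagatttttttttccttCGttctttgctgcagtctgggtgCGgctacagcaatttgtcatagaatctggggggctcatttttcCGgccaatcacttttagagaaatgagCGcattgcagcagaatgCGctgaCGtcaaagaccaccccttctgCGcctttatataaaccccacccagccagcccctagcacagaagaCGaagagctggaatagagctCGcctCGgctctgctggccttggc
Dio3 start: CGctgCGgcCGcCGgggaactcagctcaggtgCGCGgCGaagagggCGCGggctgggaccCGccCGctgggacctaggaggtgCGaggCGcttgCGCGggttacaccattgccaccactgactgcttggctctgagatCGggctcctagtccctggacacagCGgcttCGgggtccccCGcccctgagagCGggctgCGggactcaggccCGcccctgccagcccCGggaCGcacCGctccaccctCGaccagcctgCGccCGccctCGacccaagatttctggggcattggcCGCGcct
The hexamer TGCCGC, the letters to which ZFP57 binds, and its reverse complement GCGGCA were searched on both strands. The 300 bases of the IG-DMR held 5 matches, those at Meg3 held 1 and those at Dio3 held 0, while 1.74% of all 300-base windows of chromosome 12 held at least 1. The whole 5 kb IG-DMR window held 10 matches. Among 23468 windows of 5 kb on this chromosome the median was 0, and 0 had as many. A match is a run of letters and not a measured binding site. The hexamer itself holds a CpG, and the 300 bases of the IG-DMR were chosen for their CpG density. The windows of the chromosome were not matched on CpG density, so these counts cannot be told apart from that density.

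Each library held between 7190722 and 11158414 listed calls, and covered 25.1% to 37.1% of the 10929 CpGs of the domain. Over all libraries 98.1% of these CpGs had a call, and 1 bin of 5 kb with 102 CpGs, which starts at chr12:111141033, had none. Calls per CpG in the domain were 0.769 to 0.986 of the autosomal value, and those of the whole chromosome 12 were 0.893 to 0.919 of it. The longest run of CpGs in Dnmt1 without a call in the 7 Dnmt1 KO libraries from day 3 on held 39 CpGs. Its 0 calls there follow from this choice and are no check of the labels. The same run received 173 calls in control, 6 to 29 in each library, and 4 calls in Dnmt1 KO at day 1. Intervals are 95% Clopper-Pearson intervals, and the limit that a count of 0 allows is taken as 3 calls of the total. Both cover counting error only, as if calls were independent, although a read can give several calls. Per the methods, duplicate reads had been removed before calls were extracted. The series' text calls the replicates biological, but nothing says whether they came from separate cultures, so p-values measure the spread between libraries, which may be technical.

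Over the whole domain, control libraries were 76.9% to 85.4% methylated, and 81.2% (interval 80.8 to 81.6, 38465 calls) with all libraries pooled. The 2 Dnmt1 KO libraries of day 1 were at 77.04% and 74.4%. By day 3 they had reached 40.5% and 42.1%, the day 6 library was at 31.9%, the day 9 libraries were at 31.8% and 32.8%, and both day 11 libraries were at 30.8%. All 9 Dnmt1 KO libraries were lower than either control library of the day. Averaged over days, Dnmt1 KO minus control was -38.9 percentage points (two-sided exact permutation test of genotype within day, p = 0.00077, the smallest it can give, Benjamini-Hochberg adjusted p = 0.0017 over the elements of the domain). By day this difference was -8.29, -39.0, -51.4, -48.7 and -47.4 points. The autosomes went from 75.4% in control to 34.1% at day 3 and 24.5% at day 11, and the domain lost 1.29 points less than the autosomes of the same libraries, which did not pass (exact permutation p = 0.20).

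**Figure D1:**
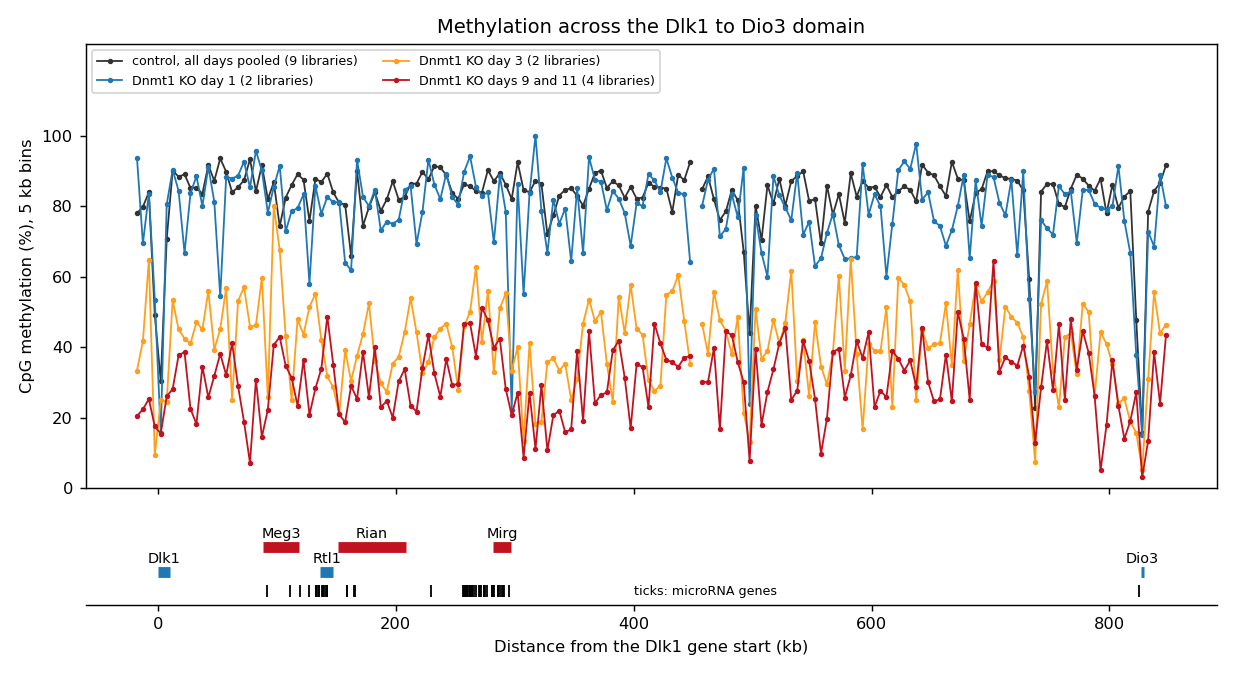
CpG methylation (%, vertical axis) of the 5 kb bins of the domain against the distance from the Dlk1 gene start (kb), with pooled control (9 libraries, grey) and Dnmt1 KO at day 1 (2 libraries, blue), day 3 (2 libraries, orange) and days 9 and 11 (4 libraries, red), and the genes drawn beneath. Control and Dnmt1 KO day 1 run close together except for narrow drops at Dlk1, at bins without genes and at Dio3, and the red points run from 3.04% at Dio3 to 64.5% in a gene-free bin.

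Bin by bin, the share of the domain called lower was close to that of the genome from day 3 on. In a quasi-binomial fit across all 263995 bins with at least 5 calls in every library, a bin was called when it differed by 10 points or more and its adjusted p was below 0.05. At day 1, 1 of the 145 tested bins of the domain was called lower in Dnmt1 KO (0.69%), where 0.0485% of all tested bins were. Of the 145, 123 were called lower on day 3 (84.8%, genome 84.2%), and again 123 on day 6 (84.8%, genome 85.3%). There were 135 on day 9 (93.1%, genome 93.6%) and 129 on day 11 (89.0%, genome 90.5%). At each of these days 0 bins of the domain were called higher, where the genome had 0.0106%, 0.0053%, 0.00265%, 0.00152% and 0.00114% of its bins from day 1 to day 11. The median difference over the domain's bins was, in the same order of days, -4.86, -41.2, -54.6, -52.1 and -49.5 points. Over all tested bins these medians were -6.79, -43.7, -58.1, -54.1 and -49.2 points, so those of the domain lay within a few points of the background.

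Most of the loss fell between days 1 and 3. Within Dnmt1 KO, 116 of 145 bins were called lower at day 3 than at day 1 (80.0%, genome 72.0%) and 0 higher (genome 0.00568%). In the quasi-binomial fit the steps from day 3 to 6, from day 6 to 9 and from day 9 to 11 gave 0 calls in the domain, with 22, 12 and 10 of 145 bins at an unadjusted p under 0.05. At that threshold the genome had 27705, 13026 and 13653 of 263995 bins. Over the genome the first of these steps called 0.00417% of bins lower, and the other steps 0.0%. Across the 4 days from day 3 on, 93 bins were called lower on all 4 days (64.1%, genome 65.1%) and 0 on none (genome 0.495%). On 1 day only, 4 bins were called (2.76%, genome 1.7%). They were the bin of the Dlk1 start, which was at 30.4% in control already, and 3 bins without an annotated gene starting at chr12:111121033, chr12:111371033 and chr12:111426033.

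The 1 bin called lower at day 1 starts at chr12:111186033, holds 97 CpGs and has no annotated gene. It was 65.5% methylated (110 calls) in control and 23.9% (88 calls) in Dnmt1 KO, a difference of -41.6 points (adjusted p = 0.0443, quasi-binomial fit). The control level of this bin was 26.0% (127 calls) at days 9 and 11, near the Dnmt1 KO level of day 1. Leaving out either control library of day 1, or replicate 2 of Dnmt1 KO at that day, left 0 bins called.

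The IG-DMR window and the Meg3 start were the most methylated of the 22 tested elements of the domain in control. By pooled calls the IG-DMR window was slightly the higher, and by the mean of 9 libraries the Meg3 start was (92.9% against 91.9%). In Dnmt1 KO at day 11 the IG-DMR window was among the least methylated. Control libraries held 94.4% and 92.2% at day 1, 91.2% and 97.4% at day 3, 91.0% at day 6, 100% and 86.4% at day 9, and 77.1% and 97.1% at day 11. Pooled, this was 92.8% (interval 89.9 to 95, 442 calls). Dnmt1 KO libraries held 88.2% and 91.7% at day 1, 46.9% and 62.5% at day 3, 22.4% at day 6, 25.5% and 10.5% at day 9, and 0% of 18 calls, which allows up to 16.7%, and 3.45% of 58 calls at day 11. From day 3 on the genotypes did not overlap, and all 9 Dnmt1 KO libraries were below the control libraries of their day. The mean difference was -54.4 points (two-sided exact permutation p = 0.00077, adjusted p = 0.0017), and by day it was -3.31, -39.6, -68.6, -75.2 and -85.4 points. Measured against the autosomes of the same libraries the difference was -14.2 points on average (exact permutation p = 0.029), which did not pass the adjustment (adjusted p = 0.126). By day this relative difference was 2.70, 2.03, -13.7, -23.4 and -38.4 points, so it was below 0 only from day 6 on.

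For comparison, a site methylated on 1 of the 2 parental chromosomes would be near 50%. The differentially methylated region 2 to 4 kb before H19, which is also methylated on the paternal chromosome, was at 60.9% (interval 55.0 to 66.5, 294 calls) in pooled control. The 6 starts known for maternal methylation, those of Peg3, Snrpn, Mest, Peg10, Plagl1 and Nnat, were at 51.3% together (interval 48.8 to 53.8, 1598 calls). They were not alike, with 39.2% to 54.3% at Peg3, Nnat, Plagl1 and Peg10, and 90.9% of 33 calls and 87.7% of 57 calls at Snrpn and Mest, whose annotated starts hold only 8 and 18 CpGs and may miss the methylated region. The intervals of the IG-DMR and the Meg3 start lay above that of H19 and of the 6 starts together. H19 varied from 0% to 100% between single control libraries on as few as 10 calls, and these control levels are a description with no test. In Dnmt1 KO at days 9 and 11 the mean of 4 libraries was 9.87% at the IG-DMR window and 12.2% at the Meg3 start. It was 11.9% upstream of H19 and 7.22% at the maternally methylated starts, so a low late level was not particular to the IG-DMR.

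Within the IG-DMR, all 5 bins of 1 kb were called lower in Dnmt1 KO over days 3 to 11. Control over the same days was at 88.2% (51 calls) in the bin 14.7 kb before Meg3, 90.3% (103 calls) at 13.7 kb, 93.8% (96 calls) at 12.7 kb, 95.8% (24 calls) at 11.7 kb and 92.5% (53 calls) at 10.7 kb. Dnmt1 KO over these days was at 49.4%, 19.7%, 3.85%, 17.6% and 15.1% in the same order. The days did not contribute alike to these levels, as day 3 gave 32 of the 81 Dnmt1 KO calls at 14.7 kb and 5 of the 52 at 12.7 kb. At days 9 and 11 alone the levels were 27.3%, 12.1%, 0% of 20 calls (which allows up to 15%), 15% of 20 calls and 0% of 35 calls (up to 8.57%), so the bin at 12.7 kb did not stand apart from that at 10.7 kb. The bin at 12.7 kb, which contains the CpG-dense 300 bases printed above, differed by -89.9 points over days 3 to 11 (adjusted p = 1.6e-16, quasi-binomial fit over 977427 bins), and that at 14.7 kb by -38.9 points (adjusted p = 4e-04). In the 300 bases themselves, control held 93.9% of 99 calls and Dnmt1 KO at day 1 held 95.7% of 23 calls. At day 6 they held 0% of 23 calls, which allows up to 13.0%.

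In all, 53 of the 55 tested 1 kb bins between Dlk1 and Meg3 were called lower in Dnmt1 KO over days 3 to 11 (96.4%, genome 89.9%) and 0 higher. Over the whole domain the count was 509 of 562 (90.6%). Between Dlk1 and Meg3, 2 tested bins were not called. The bin 5.68 kb before Meg3 was at 61.8% in control (34 calls) and 58.8% in Dnmt1 KO (34 calls) over days 3 to 11, a difference of -2.94 points. The Dnmt1 KO calls of this bin were methylated in 4 of 4 at day 3, 6 of 7 at day 6 and 10 of 23 (43.5%) at days 9 and 11. The other, 25.7 kb before Meg3, went from 71.4% to 46.5% (difference -24.9 points, adjusted p = 0.14). Over all days, the 8 lowest control levels among the 71 bins with at least 20 control calls ran from 63.9%, in the bin at 5.68 kb, to 75.7%, and the 8 highest from 94.2% to 100%. The latter included the bin at 11.7 kb inside the IG-DMR window, and the 2 bins at 100%, 72.7 kb and 47.7 kb before Meg3, were at 44.8% and 18.9% in Dnmt1 KO. The bin at 45.7 kb was at 92.5% in control over days 3 to 11 (67 calls) and at 62.3% in Dnmt1 KO (69 calls, 46 of them from day 3), a difference of -30.2 points (adjusted p = 0.00108).

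**Figure D2:**
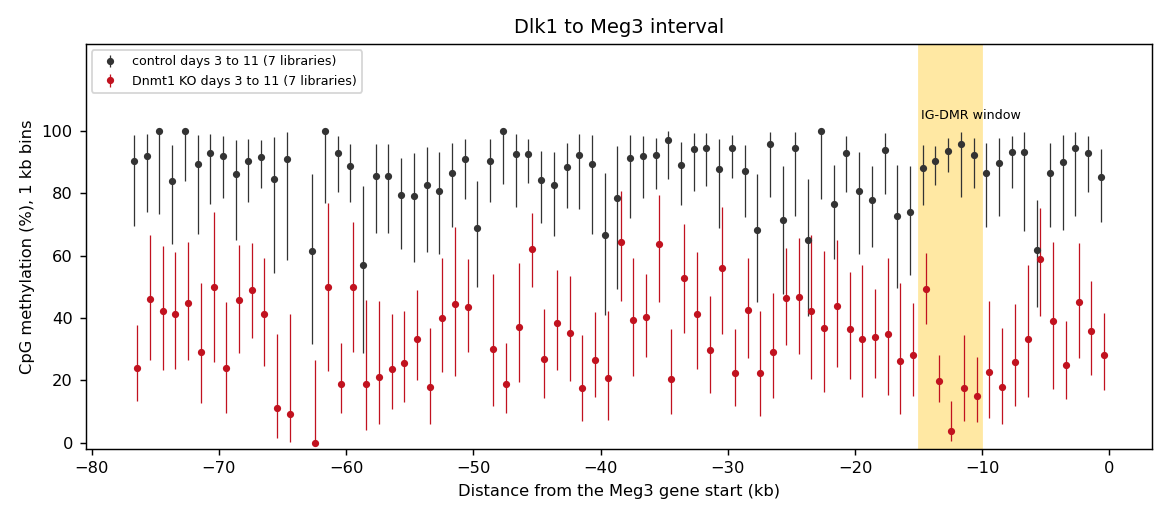
CpG methylation (%) in 1 kb bins between Dlk1 and Meg3 against the distance from the Meg3 gene start (kb), in control (grey, 7 libraries) and Dnmt1 KO (red, 7 libraries, shifted 0.25 kb right) of days 3 to 11, for bins with at least 10 calls, with 95% Clopper-Pearson intervals as bars and the IG-DMR window shaded. In the shaded window the red points fall to 3.85% while the grey points stay high, and at 5.68 kb before Meg3 the 2 genotypes lie together in these pooled days.

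Meg3, the maternally expressed long non-coding RNA, was close to the IG-DMR in level at its start and to the rest of the domain in its body. The start (1.5 kb on either side, 103 CpGs) was at 92.4% in pooled control (interval 88.7 to 95.2, 288 calls), with libraries from 82.1% to 100%. Dnmt1 KO libraries held 85.7% and 95.2% at day 1, 84.6% (13 calls) and 40.7% at day 3, 34.1% at day 6, 30.6% and 18.2% at day 9, and 0% in both libraries of day 11. The latter pooled to 0 of 58 calls, which allows up to 5.17%. The mean difference was -50.0 points (exact permutation p = 0.0031, adjusted p = 0.00377), with 7 of 9 Dnmt1 KO libraries below the control libraries of their day. The promoter alone, the 1 kb before the start with 31 CpGs, did not fall steadily on its few calls. It held 0% of 13 calls at day 6 (which allows up to 23.1%), 64.3% of 14 calls and 66.7% of 3 calls at day 9, and 0% of 16 calls at day 11, which allows up to 18.8% (difference over days -44.6 points, exact permutation p = 0.0054, adjusted p = 0.00594, 7 of 9 libraries below). In the 300 bases printed above, Dnmt1 KO held 22.2% of 18 calls at days 9 and 11. There day 9 replicate 2 was at 80% and both day 11 libraries were at 0%, while day 9 replicate 1 had no call. The Meg3 body was at 83.7% in control and at 27.1% in Dnmt1 KO at day 11 (difference over days -41.3 points, exact permutation p = 0.0023, adjusted p = 0.00318, 8 of 9 libraries below). At day 11 the start was thus at 0% in both libraries, where the body was at 23.6% and 29.8%.

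Dlk1, a paternally expressed transmembrane ligand of the Notch family, was in pooled control the least methylated of the gene bodies apart from Dio3. Control libraries of its body ran from 37.7% to 86.2%, at 56.0% pooled (755 calls). In Dnmt1 KO the day 1 libraries held 62.7% (59 calls) and 32.0% (256 calls), and those from day 3 on held 11.6% to 34.5%. The mean difference was -29.2 points (exact permutation p = 0.0023, adjusted p = 0.00318, 8 of 9 libraries below). The 5 kb bin of its start (153 CpGs) was at 42.5% of 73 calls in control and 15.6% of 211 calls in Dnmt1 KO at day 1, and at day 9 and 11 it held 46.2% of 26 calls and 4.23% of 71 calls in Dnmt1 KO. At day 1 the 2 Dnmt1 KO libraries of the Dlk1 body lay farther apart than the 2 genotypes did on average.

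Rtl1, a retrotransposon-derived gene transcribed from the paternal chromosome and antisense to microRNA genes, was at 46.3% in the pooled Dnmt1 KO libraries of day 11, where the body of Rian was at 29.5%, a difference given with no test. Control libraries of Rtl1 held 80.1% to 91.8%. Those of Dnmt1 KO held 82.1% and 79.9% at day 1, 40.7% and 32.9% at day 3, 59.0% at day 6, 30.9% and 38.3% at day 9, and 42.5% and 50% at day 11. No order in time is seen from day 3 on, and the lone library of day 6 was the highest. The mean difference was -36.3 points (exact permutation p = 0.00077, adjusted p = 0.0017, 9 of 9 libraries below). Rian, the maternal host of the C/D snoRNA genes, held 74.0% to 87.4% in control and, from day 3, 21.6% to 42.4% in Dnmt1 KO (difference -41.8 points, exact permutation p = 0.0015, adjusted p = 0.00243, 8 of 9). Mirg, the maternal host of the distal microRNA genes, held 78.0% to 96.6% in control and 25.3% to 50% from day 3 on (difference -39.9 points, exact permutation p = 0.00077, adjusted p = 0.0017, 9 of 9).

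Dio3, the deiodinase that inactivates thyroid hormone, has a CpG-rich start that was at 0% to 16% in each library with a call there. Its promoter, the 1 kb before the start with 160 CpGs, was at 2.04% of 294 calls in control (interval 0.753 to 4.39) and at 1.69% of 178 calls in Dnmt1 KO. Its body was at 23.0% in pooled control, with 35.3% and 29.7% at day 1, 16.1% to 24.4% at days 3 and 6, 17.4% (46 calls) and 0% (10 calls) at day 9, and 25% (24 calls) and 66.7% (3 calls) at day 11. In Dnmt1 KO the body held 46.4% (28 calls) and 17.1% (41 calls) at day 1, and 0% to 6.58% from day 3 on, with the 2 libraries of day 11 at 0%. The mean difference was -16.5 points (exact permutation p = 0.018, adjusted p = 0.018), with 6 of 9 libraries below the control libraries of their day. By day it was -0.761, -15.2, -13.5, -7.51 and -45.8 points, so day 11 with its 3-call control library weighed most. This call was lost without Dnmt1 KO day 1 replicate 2 (-13.6 points) and, at an unchanged -16.5 points, without either Dnmt1 KO library of day 11.

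**Figure D3:**
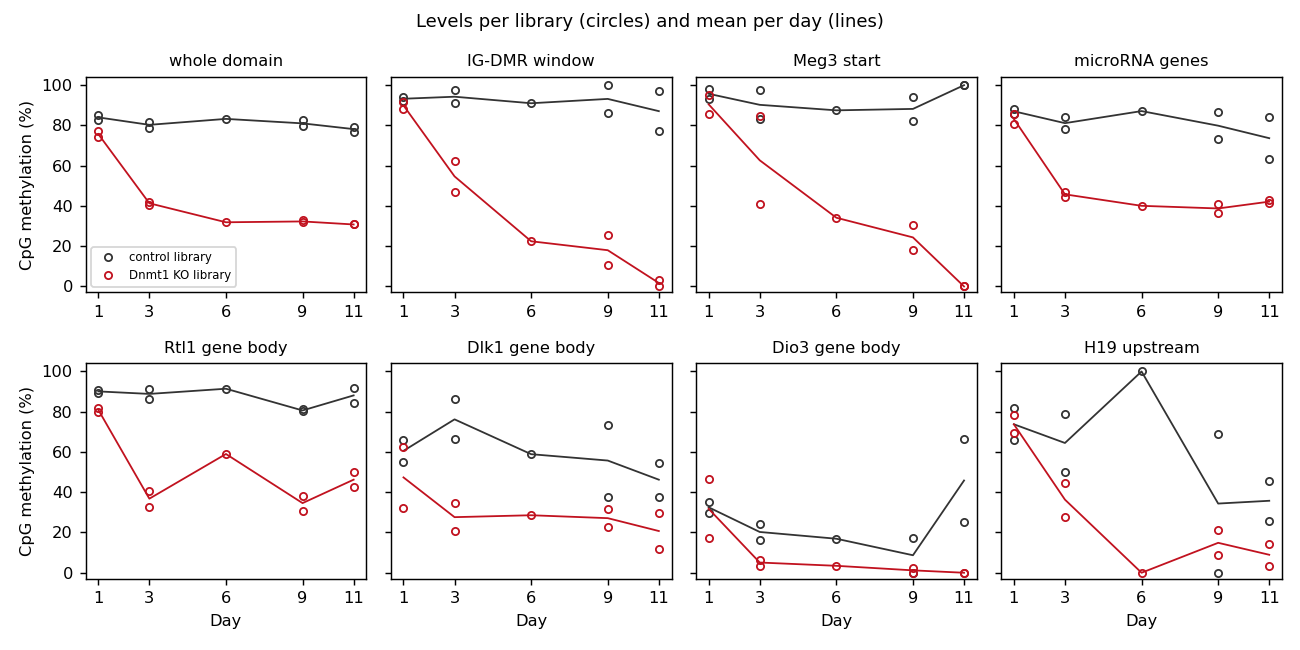
CpG methylation (%) by day in each library (circles) of control (grey) and Dnmt1 KO (red), with lines through the mean of each day, for the whole domain, the IG-DMR window, the Meg3 start, the microRNA genes, the Rtl1, Dlk1 and Dio3 gene bodies and the region upstream of H19. The red circles of the IG-DMR and the Meg3 start reach 0% at day 11, those of the microRNA genes stay between 36.5% and 47.1% from day 3 on, and the genotypes overlap at Dlk1 and Dio3 at day 1.

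All 22 elements of the domain with calls in enough libraries for the test were lower in Dnmt1 KO at an adjusted p under 0.05. The promoters of Dlk1, Rtl1, Rian, Mirg and Dio3 could not be tested, since some libraries had no call there. Relative to the autosomes of the same library, 0 of the 22 passed, with 6 at an unadjusted exact permutation p under 0.05. The nearest to the threshold were the microRNA genes (8.46 points above the autosomal difference, exact permutation p = 0.0023, adjusted p = 0.0509, above in 8 of 9 Dnmt1 KO libraries) and the CpG-dense part of the domain (23.2 points, exact permutation p = 0.0046, adjusted p = 0.0509), which was at 27.7% in control where the autosomes were at 75.4%. Of the 646 CpGs of the microRNA genes, 80 belong to Mir1247, which was at 2.19% of 137 calls in control and so had little to lose.

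Parts that were low already at day 1 were sought as bins whose interval lay under 50% in both genotypes. They were 2 of 173 bins with calls (1.16%, genome 2.03%). The first starts at chr12:111516033, holds 350 CpGs, the Dio3 gene, its antisense partner Dio3os and Mir1247, and was at 27.3% of 172 calls in control and 15.03% of 153 calls in Dnmt1 KO. The second starts at chr12:111426033, holds 124 CpGs and no annotated gene, and was at 20% of 85 calls and 27.4% of 95 calls. At days 9 and 11 the pooled Dnmt1 KO calls gave 3.04% of 263 and 12.9% of 155 calls. The bin of the Dlk1 start had pooled levels under 50% in both genotypes, but not intervals under 50% in both. Bins beside the 2 that met the rule were at 53.3% and 37.8% (chr12:111511033) and at 45.8% and 53.6% (chr12:111421033). The bin before Dlk1 at chr12:110686033 was at 53.7% and 53.5%. Where the pooled level alone had to be under 50% with at least 20 calls, the bin of the Dlk1 start joined the 2 that met the rule. The count was then 3 of 160 (1.88%, genome 5.01%).

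Parts that kept methylation were sought as bins whose interval in Dnmt1 KO at days 9 and 11 lay over 40%. They were 4 of 173 (2.31%, genome 0.581%). A bin over Rtl1 with Mir127, Mir434, Mir432 and Mir136, which starts at chr12:110831033, kept 48.7% of 187 calls (interval 41.3 to 56.1). Another in the large microRNA cluster, at chr12:110961033 with Mir654, Mir376b, Mir300, Mir381, Mir487b and a microRNA gene annotated as AC121784.2, kept 51.2% of 172 calls (43.4 to 58.8). A pair of bins with no annotated gene between Mirg and Dio3, at chr12:111376033 and chr12:111391033, kept 58.2% of 79 calls (46.6 to 69.2) and 64.5% of 110 calls (54.9 to 73.4). These 4 started between 82.6% and 88.2% in Dnmt1 KO at day 1. Just outside the rule were bins at chr12:111361033 with 50% of 96 calls (lower limit 39.6) and at chr12:111456033 with 47.9% (38.7). By the pooled level alone, over 40% with at least 20 calls, 33 of 173 bins kept methylation (19.1%, genome 6.84%). Leaving out 1 of the 4 libraries gave 3 to 6 bins, and the Rtl1 bin was lost without either day 11 library and the Mir654 bin without day 11 replicate 1.

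A mature microRNA of each gene named for the first bin and the second follows, with the seed (bases 2 to 8) in capitals, from RefSeq for GRCm38.p6. Where RefSeq lists both arms of a hairpin, 1 is shown for brevity, and AC121784.2 has no entry shown. Of the 57 microRNA genes 45 matched an entry there by name, and the hairpins of 44 were found letter for letter in NCBIM37. These are the genes whose DNA lay in the bins that kept methylation, and their RNA was not measured here.
miR-127-3p: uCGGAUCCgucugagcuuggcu
miR-434-3p: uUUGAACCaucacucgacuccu
miR-432: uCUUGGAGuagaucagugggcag
miR-136-5p: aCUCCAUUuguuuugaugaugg
miR-654-3p: uAUGUCUGcugaccaucaccuu
miR-376b-3p: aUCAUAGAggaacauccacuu
miR-300-3p: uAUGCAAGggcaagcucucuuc
miR-381-3p: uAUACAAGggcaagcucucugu
miR-487b-5p: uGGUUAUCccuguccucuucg
Each of those shown has a seed of its own. The seeds of miR-300-3p and miR-381-3p are not the same, although most of the 2 sequences is shared.

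Taken as a class, the microRNA genes (hairpins with 250 bp on either side, 646 CpGs) fell with the domain and were above its level at days 9 and 11. Control libraries held 63.3% to 88.4%. Those of Dnmt1 KO held 80.6% and 85.8% at day 1, 47.1% and 44.4% at day 3, 40.1% at day 6, 41.0% and 36.5% at day 9, and 42.8% and 41.5% at day 11. The mean difference was -31.8 points (exact permutation p = 0.0015, adjusted p = 0.00243, 8 of 9 libraries below). The 4 libraries of days 9 and 11 were each above their own level in the domain outside the microRNA genes, which was 29.9% to 32.6%. The snoRNA genes, small RNA genes in and beyond Rian, were at 85.0% in control and at 31.6% and 30.6% in Dnmt1 KO at days 9 and 11 (difference -46.3 points, exact permutation p = 0.00077).

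The level of microRNA genes at days 9 and 11 varied with where in the domain they lie, in groups that were formed after the values were seen and are given with no test. The 35 genes from Mir379 to Mir410, spread before and within Mirg, held 46.3% of 516 calls (interval 42.0 to 50.7, libraries 38.8% to 50.9%), against 86.2% in control. The 2 genes in Meg3 held 50% of 56 calls, with libraries from 11.11% to 75%, and the 7 between Meg3 and Rtl1 held 36.1% of 61 calls. The 6 genes within Rtl1 held 43.7% of 158 calls, with libraries from 21.1% to 52.7%. The 4 within Rian held 15.6% of 45 calls (6.49 to 29.5), where control held 94.2%, but 1 of their 4 libraries was at 80.0%. That library, day 11 replicate 1, had calls at Mir1188 only, a gene that held 28.6% of 14 calls over days 9 and 11. Mir1247 beside Dio3 held 2.19% of 137 calls in control and 0% of 53 in Dnmt1 KO, which allows up to 5.66%. The sequence between the hairpins and their flanks in the Mir379 to Mir410 interval held 43.1% of 325 calls (37.6 to 48.7), whose interval overlaps that of the hairpins. Single genes had few calls, with Mir434 at 62.5% of 56 and its neighbour Mir127 at 33.3% of 54.

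Levels at days 9 and 11 were then set against those of genome bins with an equal Dnmt1 KO level at day 1, in steps of 2 points. The IG-DMR window ended at -19.7 ± 11.4 points from its matched bins (SD, n = 4 libraries, from -29.0 to -3.66), and the Meg3 start at -17.4 ± 15.01 points, with 1 library 1.41 points above. At day 3, with 2 libraries, both had been above their matched bins. The IG-DMR window was then 15.6 points above (8.41 to 22.9) and the Meg3 start 23.6 points above (1.11 to 46.1). The microRNA genes ended 11.6 ± 2.88 points above theirs (7.44 to 14.05), Rtl1 12.1 ± 7.80 above (2.85 to 21.4) and the gap from Rian to Mirg 9.05 ± 2.74 above (6.67 to 11.5). These elements share calls, since microRNA genes lie in Rtl1 and in that gap. The domain as a whole was 4.19 ± 0.995 points above (3.05 to 5.17). The region upstream of H19 was at -14.7 ± 7.17 points and the maternally methylated starts at -5.07 ± 3.11 points. Matched instead on the control level, H19 was at -6.74 points and the maternally methylated starts at -8.21 points, the opposite order, while the IG-DMR window was at -21.7 and the microRNA genes at 14.1 points. These values are a description, over 4 libraries for days 9 and 11, with no test of an element.

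**Figure D4:**
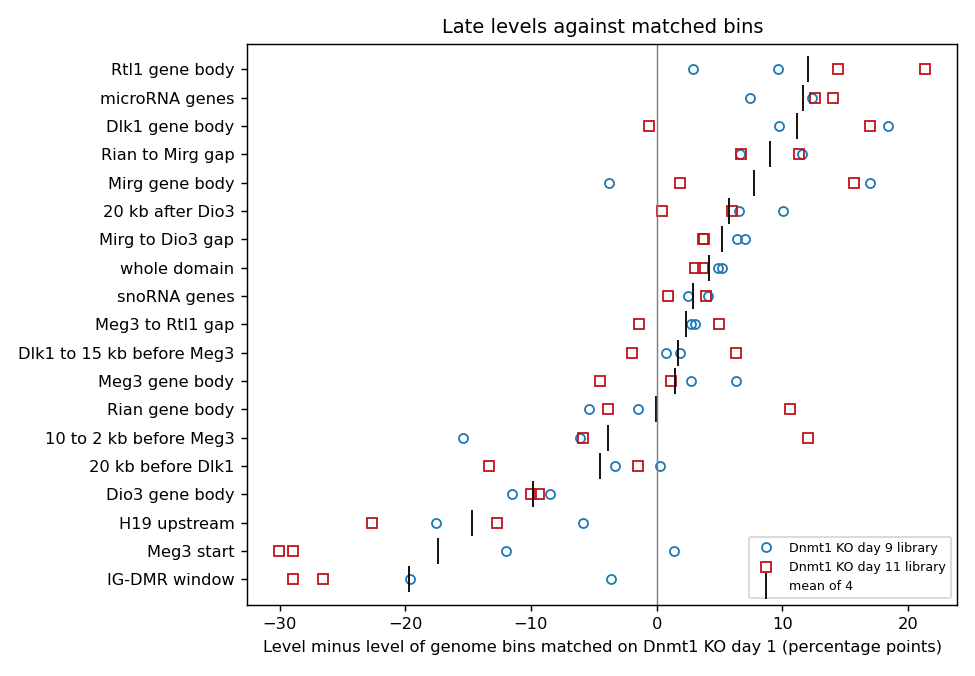
Level of each element minus that of genome bins matched on the Dnmt1 KO day 1 level (percentage points, horizontal axis) in the 2 day 9 libraries (circles) and the 2 day 11 libraries (squares) of Dnmt1 KO, with the mean of the 4 as a bar and elements sorted by it. The microRNA genes, Rtl1 and the gap from Rian to Mirg lie right of 0 in all 4 libraries, and the IG-DMR window lies left of it in all 4. The whole domain, the gap from Mirg to Dio3, the 20 kb after Dio3 and the snoRNA genes also lie right of 0 in all 4. The Dio3 gene body and the region upstream of H19 also lie left of it in all 4.

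In the same comparison bin by bin, for bins that started at 50% or more, limma gave 0 bins with an excess or deficit of at least 20 points at an adjusted p under 0.05, of 140 in the domain and of 243301 in the genome. At an unadjusted p under 0.05 the domain had 29 bins in excess and 3 in deficit, where the genome had 8.19% of bins in excess and 8.72% in deficit. The count in excess was 19 without Dnmt1 KO day 11 replicate 2. Above their background were 86 of 140 bins (61.4%, genome 48.9%), and the median excess was 4.17 points against -0.288 over the genome. The largest excesses of the 4 kept bins were those of the gene-free bins, at 34.3 points (adjusted p = 0.109) and 29.7 points (adjusted p = 0.109), followed by the Mir654 bin at 19.2 points (adjusted p = 0.151) and the Rtl1 bin at 17.7 points (adjusted p = 0.172). These 4 bins had been chosen for a high level in the same 4 libraries. Their excess therefore follows from the choice and is no separate support. The 3 deficits were the IG-DMR bin at chr12:110766033 with 7.14% of 112 calls and -20.7 points (adjusted p = 0.134), the bin of the Meg3 start with 14.5% of 145 calls and -15.5 points (adjusted p = 0.231), and a gene-free bin at chr12:111481033 with 5% of 60 calls and -24.5 points (adjusted p = 0.109). So none of these single bins passed the adjusted threshold in either direction.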

How the data were processed

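Whole-genome bisulfite sequencing measured CpG methylation in 18 libraries of mouse embryonic stem cells, made with 12 cycles of amplification. Per the methods, the authors trimmed paired reads with Trim Galore, aligned them to NCBIM37 with Bismark (version 0.12.3 in the submitters' processing notes), removed duplicates and extracted CpG calls. The deposited tables hold counts of methylated and unmethylated calls per cytosine, with no normalization. They also hold a deposited percent, which lay within 1e-06 points of the share given by the counts at every entry and was not used further. Calls of the 2 strands were summed per CpG. Cytosines with 1 call are listed, so the tables carry no higher coverage minimum. Depth was 7190722 to 11158414 listed calls per library, so single CpGs were not compared.

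Groups, days and replicate numbers came from the labels. Members and lists were chosen with earlier results of these data known. Elements were tested by a two-sided exact permutation of genotype within day over 2592 arrangements, with Benjamini-Hochberg adjustment over the elements. Bins of 5 kb (at least 5 calls in every library) were fitted genome-wide with a quasi-binomial model of a level per genotype and day. Bins of 1 kb (at least 20 calls per genotype, days 3 to 11) were fitted likewise, but with days 3 to 11 as a single level per genotype beside that of day 1. Changes between days 3 and 11 thus enter the dispersion of the 1 kb bins. The dispersion (1.71 and 1.61) was moderated with limma 3.58.1 in R 4.3.3, and the lone day 6 libraries were assumed to vary like the rest. The excess at days 9 and 11 was tested with limma on the 4 Dnmt1 KO libraries. Scripts ran in Python 3.11.15 and were tested on simulated data. Named bins were those low at day 1, kept, in excess or deficit, or not called lower, at most 8 of each, and in 1 kb bins the 8 lowest and 8 highest control levels. Alternatives were at least 10 calls, windows of 50 CpGs, 2 kb bins, pooled levels, cytosines with over 20 calls left out, CpGs weighted equally, limma on percents, the replicate block and leaving out each library.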

Additional observations from a re-analysis of the deposited data

Results flagged for a closer look

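The effect of Dnmt1 KO was larger at days 3 to 11 than at day 1 in each of the 4 elements compared, the smaller of which lie within the whole domain. A two-sided exact permutation of genotype within day was run on the difference, with Benjamini-Hochberg adjustment over the 4. It assumes no effect of Dnmt1 KO on any day, so its p-values do not test whether the effect was equal at day 1 and later. The IG-DMR window had the largest change, from -3.31 points at day 1 to -67.2 points later, a difference of -63.9 points (exact permutation p = 0.0046, adjusted p = 0.0144). At the Meg3 start the effect went from -5.25 to -61.2 points, a difference of -55.9 points (exact permutation p = 0.011, adjusted p = 0.0144). The microRNA genes went from -3.82 to -38.8 points, a difference of -35.0 points (exact permutation p = 0.0077, adjusted p = 0.0144). The whole domain went from -8.29 to -46.6 points, a difference of -38.3 points (exact permutation p = 0.017, adjusted p = 0.017). Whether these 4 differences differ from each other was not tested. No group held enough libraries for a check of single outlying libraries.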

How the results depend on the processing

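Of 1252 alternative values, 1203 were counted as the same as the main value and 0 as reversed. In the element tests a change of sign counted as reversed only if the main or the alternative result passed. Where neither passed it counted as the same, so results relative to the autosomes may have changed sign. Among the counts, a fall from 509 to 365 bins of 1 kb in the domain still counted as the same. The 1 bin lower at day 1 became 0 with at least 10 calls in every library, 0 in windows of 50 CpGs, and 0 to 2 on leaving out a library. With at least 10 calls, which left 64 bins of the domain to test, 58, 55, 61 and 58 bins were lower at days 3, 6, 9 and 11, and 11 were in excess at an unadjusted p. That last count was 19 to 26 on leaving out a library. The count of bins higher at day 9 ran from 0 to 1. By the pooled level, 33 bins kept methylation. In 2 kb bins, 35 of 37 were lower between Dlk1 and Meg3 (94.6%, where 1 kb bins gave 96.4% of 55). Apart from the pooled level, the share over the genome was not counted under these alternatives. The microRNA result relative to the autosomes passed the threshold with CpGs weighted equally (9.25 points), without cytosines of over 20 calls (8.83 points) and on leaving out 3 single libraries (6.38 to 8.95 points). The CpG-dense part passed with CpGs weighted equally (24.2 points) and on leaving out 3 single libraries (23.1 to 23.4 points), the Dio3 gene body on leaving out 2 (26.6 and 27.8 points), and the Rtl1 to Rian gap on leaving out 1, in the opposite direction (-20.6 points). The cause of these moves was not tested, apart from the fewer bins tested with at least 10 calls.

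Same-numbered replicates did not deviate together bin by bin (correlations -0.00212 to 0.000677 over 263995 bins). A correlation over bins leaves out a shift of whole libraries, and bins hold few calls. It therefore cannot say whether the numbers pair the libraries. With the replicate block, 2, 124, 123, 136 and 131 bins were lower at days 1, 3, 6, 9 and 11. The difference of the whole domain was -38.9 points (exact permutation p = 0.0039, adjusted p = 0.00661), and no call of another element changed. In 1 kb bins the block left 365 of 562 bins of the domain called lower (64.9%, without it 509) and 37 of 55 between Dlk1 and Meg3 (67.3%, without it 53). The share over the genome was not counted with the block, so these falls cannot be called particular to the domain. Depth limits what single bins and single microRNA genes can show.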

Other observations

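The gap between Mirg and Dio3 holds 6449 of the 10929 CpGs of the domain and hardly any annotated gene. Control libraries held 76.2% to 85.7% on 2352 or more calls each, and Dnmt1 KO libraries held 40.05% and 42.2% at day 3 and 30.8% to 34.0% from day 6 on. Its excess over matched bins at days 9 and 11 was 5.23 ± 1.76 points (SD, n = 4 libraries, 3.68 to 7.06). The 20 kb after Dio3 held 65.3% to 83.3% in control.

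The CpG-dense part of the domain, 633 CpGs with at least 25 CpGs within 250 bp on either side, held 18.1% to 37.0% in control, 21.3% and 22.4% in Dnmt1 KO at day 1, and 3.23% to 11.3% from day 3 on (difference over days -17.0 points). In the Meg3 body, a bin at chr12:110791033, chosen after its values were seen, still held 67.5% of 40 calls in Dnmt1 KO at day 3 and 42.9% of 84 calls at days 9 and 11.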
